A study of Homo sapiens with 8 samples.

Results

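ErbB receptors are held in check by a small set of proteins that act directly on the receptor, and 8 genes of this set were followed on the arrays: LRIG1, LRIG2, LRIG3, ERRFI1, CBL, CBLB, CBLC and RNF41. They were chosen from the ErbB literature and by the behaviour of LRIG1, which had been seen to be higher in both labelled knockdowns in these same ratios. LRIG1 is therefore described without a test, and the other 7 genes were tested. Every probe whose accession maps to one of the 8 genes was taken, which gave 12 probes of the 41000 on the array, each printed as 1 spot. The cells were CAPAN-2, an established line of human pancreatic adenocarcinoma. In the first experiment, 4 clones of ErbB2-KD cells, which stably carry an shRNA plasmid against ErbB2 under puromycin selection, were each hybridised against 1 pool of NT cells carrying the empty plasmid. In the second, RNA labelled MUC4-KD, from cells infected with a retroviral shRNA vector against MUC4 under G418 selection, was hybridised on 4 arrays against 1 pool of Mock cells carrying the empty retrovirus. All clones came from limiting dilution, each pool held the RNA of 4 control clones and counts as 1 control sample, and clone names are given in the labels for ErbB2-KD alone. In each experiment the dyes were swapped, with Cy5 on the labelled knockdown for 2 of the 4 arrays.

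LRIG1 is a transmembrane protein that binds ErbB receptors and promotes their ubiquitination and breakdown, and LRIG2 and LRIG3 share its domain layout. CBL, CBLB and CBLC are RING ubiquitin ligases that attach ubiquitin to activated receptors and send them to the lysosome. RNF41, also called NRDP1, is a RING ligase that controls the amount of ErbB3. ERRFI1, also called MIG6, is a cytosolic inhibitor that binds the kinase domain and is itself induced by receptor signalling.

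The targeted genes were read first. The brightest ERBB2 probe had log2 ratios of -0.58, -0.35, -0.33 and -0.40 on ErbB2-KD arrays 1 to 4, a mean of -0.41 ± 0.12 (SD, n = 4) that did not pass the test (limma adjusted p = 0.138), and the other ERBB2 probe had a mean of 0.04. The 4 MUC4 probes differed in MUC4-KD. The brightest, A_24_P239176, gave log2 ratios of 0.47, 0.39, 0.28 and -0.32 on arrays 1 to 4 (mean 0.20 ± 0.36, adjusted p = 0.391), and A_24_P239177 was likewise above 0 on 3 of 4 arrays (mean 0.34, adjusted p = 0.240). A_24_P208825 gave 1.71, 2.34, 2.21 and 2.05 (mean 2.08 ± 0.27, adjusted p = 0.00104) and A_24_P239183 had a mean of 1.43 (adjusted p = 0.0120), both above 0 on 4 of 4 arrays. No MUC4 probe was called lower in the RNA labelled MUC4-KD, and the 2 probes that passed go against the label. The direction taken here is that of the labels and of the deposited ratios, and it is opposite to the direction of the study's own list for this experiment. If the RNAs were exchanged, every MUC4-KD ratio below would change sign and keep its size and p, and the ErbB2-KD ratios would stay.

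A further measurement bears on these labels. Each channel was given a normalized level (log2, after loess within arrays and quantile scaling of the average intensity between arrays), and its SD over the 4 arrays was taken. In the ErbB2-KD experiment the SD was larger in the channel of the clones than in that of the NT pool for 80.5% of 23877 probes. In the MUC4-KD experiment it was larger in the channel labelled Mock, by the methods 1 pool on all arrays, for 74.1% of 25054 probes. The 9 member probes measured in both experiments behaved alike: the clones varied more than the NT pool for 8 of 9, and the RNA labelled Mock varied more than the RNA labelled MUC4-KD for 9 of 9. What sets this difference was not tested, and MUC4-KD and Mock are used below as labels only.

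Median spot signals were 158 to 593 in Cy5 and at most 248 in Cy3, no spot was saturated, and each channel had 56.7% to 74.3% of its probes well above background. Log ratios correlated between arrays of one experiment at r = 0.20 to 0.72 for ErbB2-KD and 0.38 to 0.83 for MUC4-KD, and between experiments at r = -0.16 to 0.25. All 6 ductal epithelial markers, such as KRT19 and EPCAM, were well above background in every channel. Of the fibroblast markers with a probe, PDGFRB and DCN were above background in none, and each COL1A2 probe was above it on at most 2 arrays of any RNA. Of the leukocyte markers only CD68 was above background throughout. In RNA from whole cultures, fewer cells with a transcript and less transcript per cell cannot be told apart.

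LRIG1 stood out among the members by the size of its ratios. Its probe A_23_P109636 had log2 ratios of 1.35, 0.28, 1.88 and 1.19 on ErbB2-KD arrays 1 to 4, a mean of 1.18 ± 0.67 (SD, n = 4). On MUC4-KD arrays 1 to 4 the log2 ratios were 3.17, 3.04, 3.11 and 2.35, a mean of 2.92 ± 0.38 (SD, n = 4). All 8 arrays lay above 0, and the lowest MUC4-KD array lay above the highest ErbB2-KD array. These are the values that selected the gene, so no test is given for them.

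The channel levels of LRIG1 show which RNA carried the difference. The normalized level (log2) was 6.83 ± 0.17 in NT and 6.80 ± 0.33 in Mock, 8.005 ± 0.76 in ErbB2-KD and 9.72 ± 0.09 in the RNA labelled MUC4-KD (SD, n = 4 arrays each). NT and Mock did not differ beyond their spread, and the RNA labelled MUC4-KD was the highest on each of its arrays. Both pools lay near the low end of the scale, where the CBLC probe, too dim to be tested, had 6.32 in NT and 6.26 in Mock. Little can be read from their likeness there. As raw signal above local background, LRIG1 gave 519, 525.5, 1056 and 900.5 in the RNA labelled MUC4-KD and 68, 84.5, 46 and 32 in Mock, where dyes are not equalised. The Mock channel was well above background on 3 of 4 arrays and NT on 4 of 4.

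**Figure D1:**
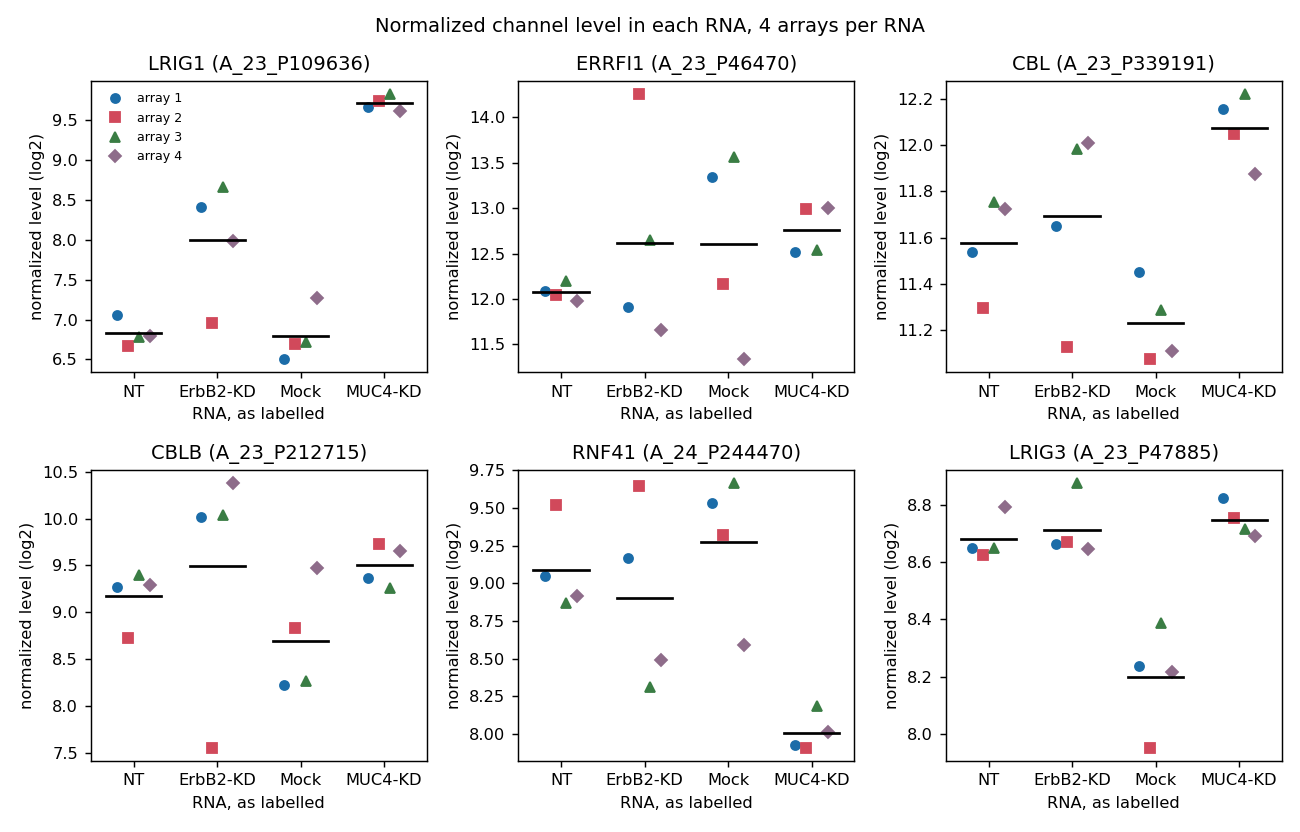
Normalized level (log2) of 6 member probes in each RNA as labelled, 1 point per array and a line at the mean of 4 arrays; axes differ between panels. LRIG1 lies near 6.8 in NT and Mock and at 9.72 in the RNA labelled MUC4-KD, and for ERRFI1 the points of Mock spread (SD 1.04) while those labelled MUC4-KD lie close together (SD 0.27).

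On ErbB2-KD array 2 the ratio of LRIG1 was only 0.28. The raw signal there was 466.5 in the clone and 139.5 in NT, but the CBLC probe, dim elsewhere, also read 377 and 145.5 on this array against 6 to 48.5 and 0.5 to 23.5 on the other 3 arrays of the experiment. The size of the LRIG1 ratio moved with the background step. With the log ratio of the Feature Extraction software the means were 2.09 (ErbB2-KD) and 4.25 (MUC4-KD), with a normexp offset of 10 the MUC4-KD mean of LRIG1 was 3.55, and with normexp fitted on all spots it was 2.47, since array 4 then read 0.60. The sign was the same under all of these.

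The promoter window of LRIG1 is shown together with that of RNF41, because these were the member with the largest positive and the member with the largest negative log2 ratio. Both are from RefSeq, build GRCh38.p14, minus strand, 250 bases before to 50 bases after the first start listed for the gene, 5′ to 3′. They lie at chr3:66501072-66501371 and chr12:56221873-56222172. Capitals mark motif matches on either strand. The letters searched for the GC box were GGGCGG. Those of the CCAAT box are its name. For the AP-1 element the search used TGANTCA. For the TATA box it used TATAAA, and none of these letters overlapped another motif in the windows printed.
LRIG1: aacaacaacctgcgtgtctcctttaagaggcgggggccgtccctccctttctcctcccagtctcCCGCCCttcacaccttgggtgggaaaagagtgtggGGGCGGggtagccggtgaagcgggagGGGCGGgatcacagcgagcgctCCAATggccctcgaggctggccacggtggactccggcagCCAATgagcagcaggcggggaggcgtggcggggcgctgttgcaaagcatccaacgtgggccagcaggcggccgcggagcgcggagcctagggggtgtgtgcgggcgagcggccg
RNF41: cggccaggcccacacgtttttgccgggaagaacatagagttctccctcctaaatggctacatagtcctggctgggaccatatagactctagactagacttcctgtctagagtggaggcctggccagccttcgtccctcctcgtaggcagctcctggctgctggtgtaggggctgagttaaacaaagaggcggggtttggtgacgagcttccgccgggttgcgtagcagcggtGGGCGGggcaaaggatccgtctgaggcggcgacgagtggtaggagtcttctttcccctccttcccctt

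The LRIG1 window held 3 GC boxes and 2 CCAAT boxes, and that of RNF41 held 1 GC box and no CCAAT box. Of 6 members with a listed window, LRIG1, LRIG2, LRIG3, ERRFI1, CBLB and RNF41, all 6 held a GC box and none held the AP-1 or TATA letters. Among the first windows of all 27305 genes, 44.6% held a GC box, 35.7% a CCAAT box, 7.76% an AP-1 element and 11.95% a TATA box. These matches describe letters in the reference, and the arrays do not measure binding.

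In ErbB2-KD no call was made among the other 7 genes. CBLC was too dim to be tested, and by limma 0 of the remaining 6 passed an adjusted p of 0.05, against 2.30% of all 23877 probes tested. Also at an unadjusted p of 0.05 the count was 0, by limma as by the methods' t-test. The median of the 6 log2 ratios was 0.22 beside -0.01 for all probes. Leaving out array 2 changed this count to 1, while the share of all probes that passed rose to 3.86%. The gene was CBLB, with a mean log2 ratio of 0.82 without array 2 (limma adjusted p = 0.0445).

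In MUC4-KD, 5 of the 6 genes tested passed, against 29.0% of all 25054 probes: as labelled, MUC4-KD had more of CBL, CBLB, LRIG2 and LRIG3 and less of RNF41. Over all probes 15.9% were called higher and 13.2% lower. ERRFI1 did not pass. The median of the 6 log2 ratios was 0.53 beside -0.00 for all probes. The count depended on the processing, the test and single arrays, and the share over all probes moved too. It was 3 (CBL, CBLB and RNF41) with normexp fitted on all spots, where 20.5% of all probes passed, 1 (RNF41) with median centring in place of loess, where 4.67% passed, and 1 (CBL) with the methods' t-test after Benjamini-Hochberg, where 13.9% passed. RNF41, read from its brightest probe, was lost with the Feature Extraction log ratio. Leaving out array 1, 2 or 3 gave 2, 1 and 1, with CBL in each, while 3259, 4119 and 2416 of all probes passed in place of 7271. Leaving out array 4 gave 5, beside 37.4%. That the 4 arrays hold 4 clones rests on the methods, as the labels give no clone names here. If they hold fewer, n = 4 counts arrays and not clones. With arrays 1 and 3, and 2 and 4, averaged to 2 values, 3 genes passed (CBL, CBLB and RNF41), beside 22.4% of all probes.

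**Figure D2:**
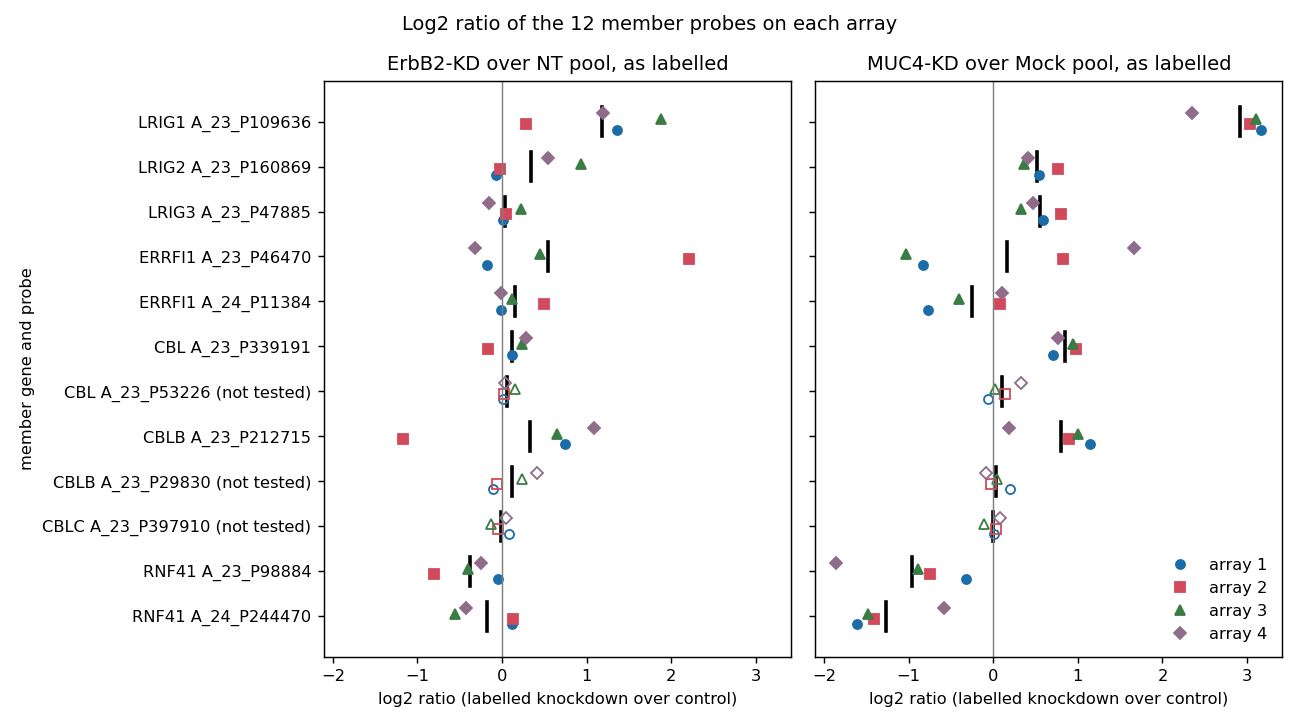
Log2 ratio of labelled knockdown over control (x axis) for the 12 member probes (y axis) on arrays 1 to 4 of each experiment, with a black line at the mean; open symbols are probes too dim to be tested. CBL lies between 0.71 and 0.98 on all MUC4-KD arrays and between -0.17 and 0.29 in ErbB2-KD, and ERRFI1 spreads from -1.03 to 1.66 in MUC4-KD.

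LRIG2 and LRIG3, the relatives of LRIG1, had smaller ratios than LRIG1 in both experiments. LRIG2 (probe A_23_P160869) had log2 ratios of -0.07, -0.03, 0.93 and 0.54 in ErbB2-KD and of 0.54, 0.77, 0.36 and 0.42 in MUC4-KD. Its mean of 0.52 ± 0.18 (SD, n = 4) in MUC4-KD passed (limma adjusted p = 0.0251) and its mean of 0.34 ± 0.48 in ErbB2-KD did not (adjusted p = 0.417); the 2 experiments overlapped. LRIG3 (probe A_23_P47885) had log2 ratios of 0.01, 0.05, 0.23 and -0.15 in ErbB2-KD and of 0.59, 0.80, 0.33 and 0.47 in MUC4-KD. All 4 MUC4-KD values of LRIG3 lay above all 4 of ErbB2-KD, but the share of all probes that do so was not counted. The mean of 0.55 ± 0.20 (SD, n = 4) passed in MUC4-KD (adjusted p = 0.0240). For LRIG3 the lower level was that of Mock, 8.20 ± 0.18 on the log2 scale, while NT, ErbB2-KD and the RNA labelled MUC4-KD lay at 8.68 ± 0.08, 8.71 ± 0.11 and 8.75 ± 0.06. LRIG2 and LRIG3 did not pass with normexp fitted on all spots (adjusted p = 0.0610 and 0.0652) or with the array pairs averaged (0.0602 and 0.0562), and LRIG2 did not pass with the slide as a block (0.0685).

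In MUC4-KD, CBL had the smallest SD of the tested members. Its bright probe A_23_P339191 had log2 ratios of 0.71, 0.98, 0.94 and 0.77 on MUC4-KD arrays 1 to 4 and of 0.11, -0.17, 0.23 and 0.29 in ErbB2-KD. No MUC4-KD value of CBL overlapped those of ErbB2-KD, and how many of all probes separate in this way was not counted. The MUC4-KD mean of 0.85 ± 0.13 (SD, n = 4) passed (limma adjusted p = 0.00482), its SD was undercut by 11.5% of all tested probes, and it passed in 4 of 4 fits that left out 1 array. A second CBL probe, A_23_P53226, was well above background in at most 2 arrays of any RNA and was not tested. CBLB (probe A_23_P212715) had log2 ratios of 1.14, 0.90, 1.00 and 0.18 in MUC4-KD, a mean of 0.80 ± 0.43 (SD, n = 4; adjusted p = 0.0235). In ErbB2-KD the log2 ratios of CBLB were 0.74, -1.17, 0.65 and 1.08, so that 3 arrays lay above 0 and array 2 far below it (mean 0.33 ± 1.01, adjusted p = 0.696). The other CBLB probe and the CBLC probe were well above background in too few arrays for a test. CBLC, the epithelial member of the family, was above background only on ErbB2-KD array 2, in both channels, which is the array with the high dim signals given above.

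RNF41 was the only member called lower in the RNA labelled MUC4-KD, and by both of its probes. Its brightest probe, A_23_P98884, had log2 ratios of -0.33, -0.75, -0.89 and -1.85 (mean -0.95 ± 0.64, SD, n = 4; limma adjusted p = 0.0360). The probe A_24_P244470 had log2 ratios of -1.61, -1.41, -1.48 and -0.58 (mean -1.27 ± 0.47, SD, n = 4; adjusted p = 0.00726). Both probes lay below 0 on 4 of 4 arrays but disagreed on array 4, which was the lowest for the first and the highest for the second. In ErbB2-KD the brightest RNF41 probe was below 0 on 4 of 4 arrays, from -0.81 to -0.05 (mean -0.38 ± 0.32, adjusted p = 0.268), and the second lay on both sides of 0. For the second RNF41 probe the RNA labelled MUC4-KD had the lowest level, 8.01 ± 0.13 on the log2 scale, below NT, ErbB2-KD and Mock at 9.09 ± 0.30, 8.90 ± 0.62 and 9.28 ± 0.48, whose means lay within 1 SD of one another.

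ERRFI1 had the largest spread between arrays of all members, and its mean did not pass in either experiment. Probe A_23_P46470 had log2 ratios of -0.17, 2.21, 0.45 and -0.32 on ErbB2-KD arrays 1 to 4. On MUC4-KD arrays 1 to 4 they were -0.83, 0.83, -1.03 and 1.66. Its SDs of 1.16 and 1.30 exceeded those of 98.9% and 98.8% of tested probes, and the adjusted p was 0.547 and 0.825 (limma). In ErbB2-KD it was array 2 that stood apart. Its normalized level (log2) in the clone was 14.25 against 11.66 to 12.65 on the other 3 arrays, while the NT channel held steady at 12.08 ± 0.09. Array 2 also had the lowest ratio of CBLB (-1.17) and of EGFR (-2.80), and the lowest of LRIG1. It shared slide 2 with MUC4-KD array 4. That array had the highest ERRFI1 ratio of its experiment and the lowest of LRIG1 (2.35) and CBLB (0.18), but not of EGFR (1.68). Clone and slide cannot be told apart here. In MUC4-KD, arrays 1 and 3 lay below 0 and arrays 2 and 4 above it. Within each of these pairs the dyes were opposite, and the spread was in the channel labelled Mock (12.60 ± 1.04) more than in that labelled MUC4-KD (12.76 ± 0.27). Arrays 1 and 3 also shared slide 3, while array 2 was on slide 1 and array 4 on slide 2. Pair and slide therefore cannot be told apart. The second ERRFI1 probe, A_24_P11384, had the same order of pairs in MUC4-KD, with -0.78 and -0.40 on arrays 1 and 3 and 0.09 and 0.10 on arrays 2 and 4, and did not pass either (adjusted p = 0.345).

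The difference between the experiments was tested over all 8 arrays as MUC4-KD minus ErbB2-KD. One of the 6 genes passed by its brightest probe, against 16.4% of all 25841 probes. This was CBL, with a difference of 0.73 ± 0.16 (SE) on the log2 scale (limma adjusted p = 0.0174). Each ratio is taken to the pool of its own experiment, so the contrast also holds the difference between NT and Mock. The normalized level (log2) of CBL was 11.58 ± 0.21 in NT and 11.69 ± 0.41 in ErbB2-KD. In Mock it was 11.23 ± 0.18 and in the RNA labelled MUC4-KD 12.08 ± 0.15 (SD, n = 4 arrays each). On slides 1, 2 and 3, each of which held arrays of both experiments, the CBL difference was 0.80, 0.94 and 0.54. The second RNF41 probe also passed, with -1.08 ± 0.27 (SE; adjusted p = 0.0255) and -1.19, -0.71 and -1.12 on the 3 slides, and the brightest RNF41 probe did not (-0.58, adjusted p = 0.247). The CBL call was lost without MUC4-KD array 3 (adjusted p = 0.0580), and likewise the second RNF41 probe (adjusted p = 0.0775). For LRIG3 the difference was 0.51 (adjusted p = 0.0654), for CBLB 0.48 (adjusted p = 0.517), for LRIG2 0.18 (adjusted p = 0.663) and for ERRFI1 -0.38 (adjusted p = 0.753). With the sign of MUC4-KD turned, 4 of 6 genes differed from ErbB2-KD, against 23.0% of all probes: CBL (-0.96), LRIG2 (-0.86) and LRIG3 (-0.58) lower and RNF41 (1.33) higher.

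**Figure D3:**
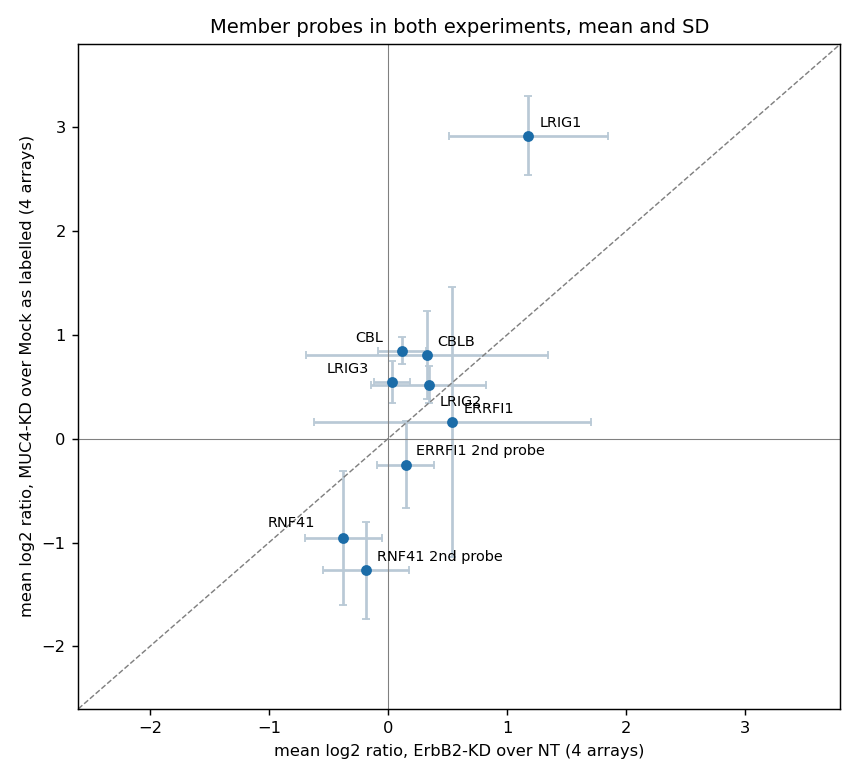
Mean log2 ratio of the 9 member probes tested in both experiments, ErbB2-KD on the x axis and MUC4-KD as labelled on the y axis, with bars of 1 SD over 4 arrays; the dashed line marks equal ratios. LRIG1 lies at 1.18 and 2.92, CBL at 0.12 and 0.85 and the second RNF41 probe at -0.18 and -1.27.

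The plot of MUC4-KD ratios by processing shows which values depend on the background step. Array 4 had 1 spot with a Cy3 local background of 73162 against a median of 39. With normexp fitted on all spots, the 10th percentile of the corrected Cy3 signal on that array was 716. It was 67.9 when only that spot was kept out of the fit and 63.5 when all 2249 flagged spots were. The bright CBL probe was hardly touched by this step, with MUC4-KD means of 0.85 and 0.86. With median centring in place of loess it had log2 ratios of 0.03, 0.25, 1.04 and 1.30 on MUC4-KD arrays 1 to 4. That mean of 0.65 ± 0.61 (SD, n = 4) did not pass (limma adjusted p = 0.227).

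**Figure D4:**
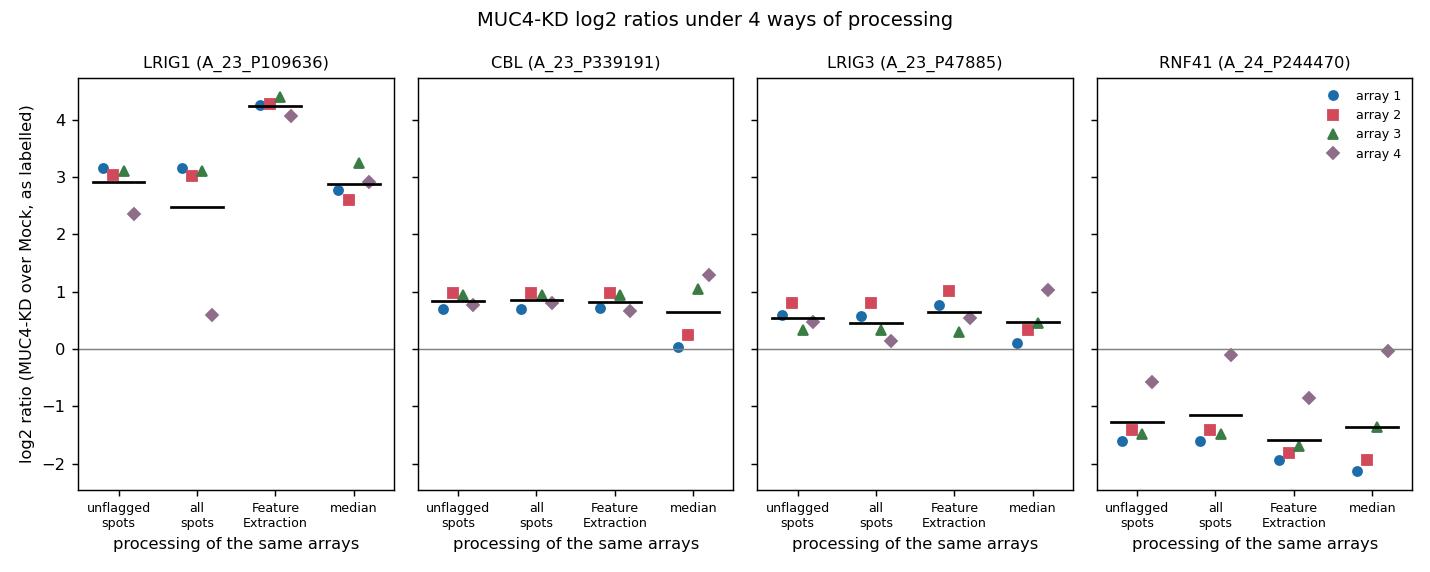
MUC4-KD log2 ratios (y axis) of 4 member probes on arrays 1 to 4 under normexp fitted on unflagged spots, normexp fitted on all spots, the Feature Extraction log ratio and median centring, with a line at the mean. LRIG1 on array 4 reads 2.35, 0.60, 4.06 and 2.91. All values of CBL stay above 0, but with median centring they spread from 0.03 to 1.30.

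By a fixed rule, the 5 genes whose log2 ratios over the 8 arrays were most like those of LRIG1 were named among 23004 probes tested in both experiments. They were PBX4 (Pearson r = 0.987), NUFIP2 (0.985), PEX11A (0.985), AMT (0.984) and LENG8 (0.983). This is a description over 8 arrays that share 2 pools, and likeness follows the course over arrays, not the level: PBX4 had means of -0.91 in ErbB2-KD and 1.36 in MUC4-KD. This ranking depends on the direction of MUC4-KD: with its sign turned, 0 of these genes were among the first 5, and their r was 0.549, 0.448, 0.977, 0.141 and 0.750. Among the other members, r with LRIG1 was 0.938 for CBL, 0.820 for LRIG3, 0.672 for CBLB and 0.525 for LRIG2, and -0.932 for the RNF41 probe A_24_P244470 and -0.211 for the brightest RNF41 probe. With the sign of MUC4-KD turned these were 0.977, 0.889, 0.771, 0.870, -0.948 and -0.728. The ERRFI1 probes A_23_P46470 and A_24_P11384 had r of -0.497 and -0.729 with LRIG1, and 0.148 and -0.297 with the sign turned. The share of all probes with r of such size was not counted.

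The other genes of the pathway were read from 8 lists of 62 genes, 60 with a probe. In ErbB2-KD, 1 of 49 tested genes passed, or 2.04% beside 2.30% of all probes. This was SMURF2, a HECT ubiquitin ligase, with log2 ratios of 1.27, 1.83, 0.64 and 1.41 (mean 1.29 ± 0.49, SD, n = 4; limma adjusted p = 0.0356). An HBEGF probe that is not the brightest also passed (A_23_P213944, mean 0.88, limma adjusted p = 0.0464). The brightest HBEGF probe did not (mean 0.92, adjusted p = 0.0591). SMURF2 did not pass without array 1, 3 or 4, each of which left 0 genes, beside 0.678%, 0.247% and 0.247% of all probes. Without array 2 the count was 4, beside 3.86% of all probes. In MUC4-KD, 14 of 52 tested genes passed, or 26.9% beside 29.0%, 6 higher and 8 lower as labelled. With normexp fitted on all spots 8 passed, beside 20.5% of all probes. Without array 1 the count was 7 and without array 3 it was 4, when 3259 and 2416 of all probes passed in place of 7271.

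Among the receptors 2 of 3 tested passed in MUC4-KD. EGFR was higher, with log2 ratios of 1.48, 1.76, 1.17 and 1.68 (mean 1.52 ± 0.26, SD, n = 4; limma adjusted p = 0.00197), and ERBB3, the receptor that RNF41 acts on, was lower (mean -0.71 ± 0.27, adjusted p = 0.0158). ERBB4 was too dim to be tested, as each of its probes was well above background on at most 1 array of any RNA. In ErbB2-KD the mean of EGFR was -1.14 ± 1.15 (adjusted p = 0.210), carried by -2.80 on array 2. Of the 5 ligands whose test did not rest on 1 channel being bright, 2 passed and were lower in the RNA labelled MUC4-KD. BTC, with a mean log2 ratio of -1.77 ± 0.23, and AREG, with -1.29 ± 0.73, bind EGFR. EPGN, also an EGFR ligand, is counted among the 14 but could enter the test only through Mock, where it was well above background on 4 of 4 arrays against 0 in the RNA labelled MUC4-KD. With both channels required to be above background, EPGN was not tested and 13 of 49 genes passed, beside 27.1% of all probes.

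Of the genes that act on the receptor or its signal after activation, 9 passed in MUC4-KD. By list, 9.09% of adaptors, 28.6% of ligases and 50% of phosphatases passed, beside 29.0% of all probes. The shares were 25% for SOCS genes, 12.5% for MAPK feedback genes and 0 of 3 for deubiquitinating enzymes. Values below are mean log2 ratios ± SD of 4 arrays. EPS15, an endocytic adaptor, was the only one of 11 adaptors called by its brightest probe (0.52 ± 0.18, higher). One of 3 HGS probes, not the brightest, also passed (A_24_P125993, -0.48, adjusted p = 0.0458). NEDD4L (1.00 ± 0.44) and ITCH (0.62 ± 0.19), both HECT ligases, were higher (2 of 7 ligases), although a second ITCH probe did not pass (0.33, adjusted p = 0.196). Among 6 tyrosine phosphatases PTPRJ (1.27 ± 0.37) and PTPN12 (0.74 ± 0.09) were higher and PTPN9 (-0.45 ± 0.12) was lower. SOCS1 (-1.10 ± 0.40) and SOCS6 (-0.44 ± 0.16), of the family that attaches ubiquitin ligases to receptors, were lower (2 of 8). DUSP5, a phosphatase of ERK, was the only MAPK feedback gene of 8 to pass (-1.15 ± 0.65).

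**Figure D5:**
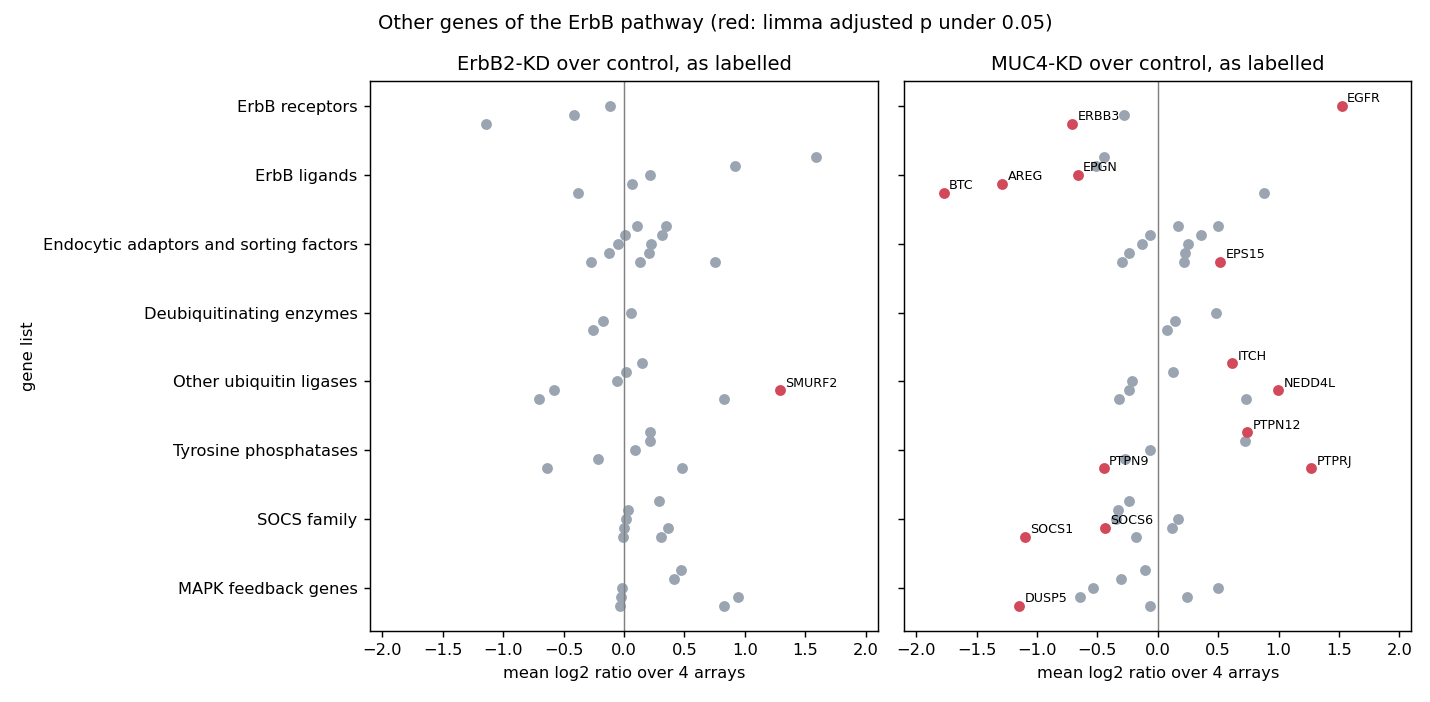
Mean log2 ratio over 4 arrays (x axis) of each tested gene in the 8 lists (y axis) for ErbB2-KD and MUC4-KD as labelled; red points with names passed a limma adjusted p of 0.05. SMURF2 alone is red in ErbB2-KD, and 14 genes are red in MUC4-KD, from BTC at -1.77 to EGFR at 1.52.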

How the data were processed

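Gene expression in CAPAN-2 cells was measured on 8 Agilent 2-colour arrays. The authors scanned them and deposited the output of Feature Extraction 10.5.1.1, which holds the median spot and background intensity of each channel and, as deposited, a log10 ratio after that software's own background and dye correction. Intensities were corrected with normexp (offset 50) and normalized by loess within arrays (limma 3.58.1 in R 4.3.3), outlier spots were dropped, and ratios were turned to labelled knockdown over control. Normexp was fitted on spots without an outlier flag. This was decided after the data were seen, because the fit on all spots raised the low end of the corrected Cy3 signal on 3 arrays, and its results are given as an alternative.

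Testing was limited to probes well above background in either the knockdown or the control channel throughout the 4 arrays. Ratios were tested against 0 with lmFit and eBayes and adjusted over all probes tested (Benjamini-Hochberg), which leaves out the spread between control clones. The difference between the experiments used all 8 arrays. With 4 arrays, sign flips reach an exact p of 0.125 at the smallest. A gene was read from its brightest tested probe. Symbols came from RefSeq through the accession, for 25398 of 41000 probes. The members, lists and tests were chosen with earlier results of these data known. Named genes were every member, the targeted genes, the ErbB receptors, at most 3 called genes per list and experiment with the largest log2 ratio, and the 5 genes most like LRIG1. The steps were tested on simulated data. The replicate numbers did not pair the arrays (r of deviations -0.20 to -0.08).

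Alternatives were a normexp offset of 10, the Feature Extraction ratio, median centring, a looser or a stricter filter on dim probes, terms for dye, slide or replicate number, an intensity trend, 1 fit over 8 arrays, the methods' t-test, averaged probes, leaving out each array, and, added after seeing the data, normexp on all spots, averaged MUC4-KD array pairs and the sign of MUC4-KD turned. The number of arrays limits the precision.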

Additional observations from a re-analysis of the deposited data

Results flagged for a closer look

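In MUC4-KD, the gap between LRIG1 on array 4 (2.35) and the nearest array was 0.843 of the range of the 4 arrays. This is a description, since these ratios selected the gene. The Mock channel of LRIG1 was not well above background there, and the Feature Extraction log ratio was 4.06 on this array and no lower than 4.26 on the others.

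Differences between the experiments passed the test for CBL, with 0.73 on the log2 scale (MUC4-KD minus ErbB2-KD as labelled), and for the RNF41 probe A_24_P244470, with -1.08. With the sign of MUC4-KD turned, these differences were -0.96 and 1.45 and passed as well (limma adjusted p = 0.00383 and 0.00568).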

How the results depend on the processing

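Apart from the sign of MUC4-KD turned, which reversed the differences of CBL, LRIG2, LRIG3 and RNF41, no log2 ratio or difference of a member that passed, as reported or in an alternative, changed sign between them. The members called in MUC4-KD (5) fell to 1 with median centring and with the methods' t-test after Benjamini-Hochberg, and to 3 with normexp fitted on all spots and with MUC4-KD arrays 1 and 3, and 2 and 4, averaged; leaving out 1 array gave 1 to 5. Over all probes 4.67%, 13.9%, 20.5% and 22.4% passed in that order, and 9.64% to 37.4% leaving out 1 array. Members called in ErbB2-KD (0) ranged from 0 to 1 when 1 array was left out, beside 0.247% to 3.86% of all probes. For the difference (1), the count was 0 with the Feature Extraction log ratio, with median centring and with the replicate number as a block. It was 2 without a filter and with each gene's tested probes averaged. With the sign of MUC4-KD turned it was 4, and leaving out 1 array gave 0 to 1. Over all probes 15.8%, 4.26%, 9.07%, 10.1%, 18.4% and 23.0% passed in that order. Leaving out 1 array gave 8.72% to 18% of all probes, against 16.4% as reported.

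Pathway genes called in ErbB2-KD (1) were 2 with an offset of 10, with an intensity trend and with averaged probes, 0 with median centring, no filter and the adjusted t-test, 3 with a dye term, 5 with the slide as a block, 6 in 1 fit over 8 arrays, 13 with the unadjusted t-test, and 0 to 4 leaving out 1 array. Over all probes 2.72%, 3.02%, 2.54%, 0.733%, 0.776%, 0% and 2.24% passed, in the order from the offset of 10 to the dye term. Under the last 4 settings 5.32%, 5.78%, 14.2% and 0.247% to 3.86% passed. Pathway genes called in MUC4-KD (14) were 2 with median centring, and 8 with the adjusted t-test and with normexp fitted on all spots. Leaving out 1 array gave 4 to 21. Over all probes 4.67%, 13.9%, 20.5% and 9.64% to 37.4% passed in that order, against 29.0% as reported. Median centring moved the median of all probes to -0.10 in ErbB2-KD. The causes of these changes were not tested, and a fit that leaves out 1 array also has fewer arrays. Within 1 experiment duplicateCorrelation gave no value for the slide, so it entered as a fixed term over all 8 arrays. Dim members, CBLC above all, are limited by signal over background.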

Other observations

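The order of MUC4-KD arrays seen for ERRFI1, with 1 and 3 on one side and 2 and 4 on the other, was also present in other genes that were picked out after their values were seen. DUSP5 had log2 ratios of -1.61 and -1.81 on arrays 1 and 3 and of -0.58 and -0.60 on arrays 2 and 4. AREG had -1.78 and -2.02 against -0.50 and -0.85. The epithelial marker EPCAM had -1.41 and -1.02 against 0.16 and 0.79. CBL did not show it, with 0.71 and 0.94 against 0.98 and 0.77. Over all probes tested in both experiments, log ratios of arrays 1 and 3 correlated at r = 0.824, those of arrays 2 and 4 at 0.415 and those of arrays 1 and 2 at 0.827. Arrays 1 and 3 shared slide 3, so this order of arrays also follows the slide.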
